A study of Mus musculus with 8 samples.

Results

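ATAC-seq reads out open chromatin as the places that Tn5 transposase can reach, and the regions described here are the 808 peaks that lay over 2000 bp from a transcription start site (TSS) and were called in all 3 conditions of WT bone marrow-derived macrophages (BMDMs). They are 808 of the 9698 merged peaks and of the 2753 peaks called in all 3 conditions. Another 1917 of those 2753 lay within 2000 bp of a TSS, and 28 had no distance in the authors' table. The members were chosen by the peak calls of the same 6 libraries whose tags are given below, so their height and their evenness between conditions are in part a consequence of that choice and are given as a description. WT BMDMs came from adult C57BL/6 mice, were grown in M-CSF, starved of serum, and received vehicle (Veh), the TLR4 agonist Kdo2-lipid A (KLA), or KLA after the HDAC3 inhibitor RGFP966, all at 6 h, with 2 libraries each. For the RGFP966 + KLA libraries the sample titles name RGFP966, whereas their treatment entry names only KLA. A further pair of Veh libraries came from BMDMs with NCoR1 flox/flox alleles (NCoR f/f), whose labels name no Cre and which the study uses as its wild-type controls for NCoR1 deletion. Whether the 2 libraries of each condition are from different mice or cultures is not stated, so that p-values measure only the spread between these libraries.

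Distal accessible sites in macrophages are mostly enhancers and other regulatory elements. PU.1 and C/EBP factors select many of them during differentiation, together with AP-1, RUNX and IRF proteins, and signals such as TLR4 activation then raise or lower a subset through NF-kB and further AP-1. Other sites open in every cell type are bound by CTCF, an insulator and loop anchor protein. Peaks over tandem repeats form another kind, in which reads from many copies in the genome can be placed on the few copies that the assembly holds.

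The highest of the constitutive distal peaks lay in satellites and ribosomal RNA, and 3 windows (mm10, plus strand, 5′ to 3′) are shown because they stand for the repeated sequence among the members. The first is the center of the highest peak, in the ribosomal RNA gene Rn45s, with its only searched-for motif match, NFkB-p65, in capitals. The second is the center of the highest satellite peak, assigned to 4933422A05Rik, and the third is from a peak that shares sequence with the mitochondrial genome, assigned to Col19a1; neither has capitals because no motif was marked.
Rn45s, chr17:39845553-39845752: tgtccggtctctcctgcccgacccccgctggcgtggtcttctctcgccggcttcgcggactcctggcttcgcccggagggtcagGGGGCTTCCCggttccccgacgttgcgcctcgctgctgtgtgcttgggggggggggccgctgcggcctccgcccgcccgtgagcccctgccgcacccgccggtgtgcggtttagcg
4933422A05Rik, chr9:35305356-35305555: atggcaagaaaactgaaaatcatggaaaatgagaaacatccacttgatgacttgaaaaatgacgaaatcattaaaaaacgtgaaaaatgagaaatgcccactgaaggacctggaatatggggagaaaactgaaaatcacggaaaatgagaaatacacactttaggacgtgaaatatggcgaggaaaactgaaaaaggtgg
Col19a1, chr1:24613018-24613137: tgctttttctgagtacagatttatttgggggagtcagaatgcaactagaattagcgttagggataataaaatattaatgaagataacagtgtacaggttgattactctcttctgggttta

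The single-copy peaks look different, and the 8 that follow are shown because they are the highest peaks with a match to each of 4 factors of distal elements. Capitals mark the match on either strand: the CTCF motif, GAGGAAGT for PU.1, TTGCNNAA for C/EBP, and TGANTCA for AP-1.
CTCF, Glrx, chr13:75798016-75798075: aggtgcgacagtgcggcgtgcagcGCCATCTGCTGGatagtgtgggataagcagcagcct
CTCF, Btbd10, chr7:113378090-113378149: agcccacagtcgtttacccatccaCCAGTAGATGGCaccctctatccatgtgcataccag
PU.1, Dnajc3, chr14:119007478-119007537: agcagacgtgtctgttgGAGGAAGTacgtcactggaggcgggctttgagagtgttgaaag
PU.1, Atp6ap1l, chr13:90516011-90516070: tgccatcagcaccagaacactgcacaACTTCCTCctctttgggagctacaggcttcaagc
C/EBP, Sfi1, chr11:3187392-3187451: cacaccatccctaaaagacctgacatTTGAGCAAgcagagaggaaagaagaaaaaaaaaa
C/EBP, Oxgr1, chr14:120137934-120137993: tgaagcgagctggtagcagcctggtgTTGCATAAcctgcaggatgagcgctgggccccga
AP-1, Eif4enif1, chr11:3199604-3199663: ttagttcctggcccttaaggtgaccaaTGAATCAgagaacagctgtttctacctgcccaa
AP-1, Sfi1, chr11:3186770-3186829: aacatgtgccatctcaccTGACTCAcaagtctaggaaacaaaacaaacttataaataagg

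The windows assigned to Sfi1 and Eif4enif1 lie within a stretch of chromosome 11 that held the highest single-copy peaks, described further below, and the others come from separate loci.

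The WT libraries held between 116733 and 202523 tags in peaks, out of 6247529 to 10645261 tags in the Veh and KLA libraries and 11005917 and 10810227 in RGFP966 + KLA. Values are raw tags or, where named normalized, tags per 1000000 tags in peaks. Among macrophage marker genes, Csf1r, Itgam, Cd68, Fcgr1, Cebpa and Cebpb had peaks assigned to them, whereas Adgre1, Spi1, Lyz2, Mertk and Irf8 had none. None of 20 markers of T cells, B cells, fibroblasts, epithelial cells, erythroid cells and neutrophils had a peak.

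By the authors' annotation, 466 of the 808 peaks were intergenic and 316 intronic, with 8 at transcription termination sites, 7 in non-coding RNAs, 5 in exons, 5 in 3′ UTRs and 1 in a 5′ UTR. Their median distance to the TSS of the assigned gene was 25034 bp, with a range of 2024 to 1199530 bp, and they were assigned to 651 genes. The members nearest the limit were a Brox intron peak 2024 bp from its TSS, with 59, 79, 92, 66, 78 and 87 tags in Veh 1, Veh 2, KLA 1, KLA 2, RGFP966 + KLA 1 and RGFP966 + KLA 2, and an Elmo1 intron peak at 2037 bp, with 10, 17, 17, 12, 21 and 18 tags. Just within the limit lay constitutive peaks of Csgalnact2 at 1970 bp, with 15, 15, 24, 11, 19 and 15 tags, and Gm6936 at 1948 bp, with 9, 14, 27, 12, 19 and 21 tags. The Elmo1 peak and both peaks within the limit thus had similar tags, and the Brox peak lay in repeated sequence.

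To separate repeats from other elements, the 30-base words of each peak were counted over the mm10 assembly. In 642 peaks (79.5%), called single-copy here, at least 90% of the words occurred once and no satellite or ribosomal repeat was annotated. A further 58 lay in satellites or ribosomal RNA repeats, 46 in other repeated sequence, and 62 on the unplaced scaffold Un_JH584304, whose sequence was not read. Peaks not classed as single-copy made up 20.5% of the members (166 of 808, 95% Wilson interval 17.9 to 23.5). This was 1.41% of the constitutive peaks within 2000 bp of a TSS (0.97 to 2.04) and 3.86% of the other distal peaks (3.3 to 4.51). Each share includes peaks whose sequence was not read, 62 among the members, so it is not a measured share of repeats. These intervals, here and below, cover counting error only. The classes were set after the values were seen, and they count copies in the assembly, not in the genome.

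The levels differed between the classes. The median normalized level was 123 for single-copy peaks, with a range of 71.3 to 708, 182 for other repeated peaks, 222 for the scaffold and 363 for satellites and ribosomal repeats, which reached 3051. The median constitutive peak within 2000 bp of a TSS was at 146, and the median other distal peak at 65.9.

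**Figure D1:**
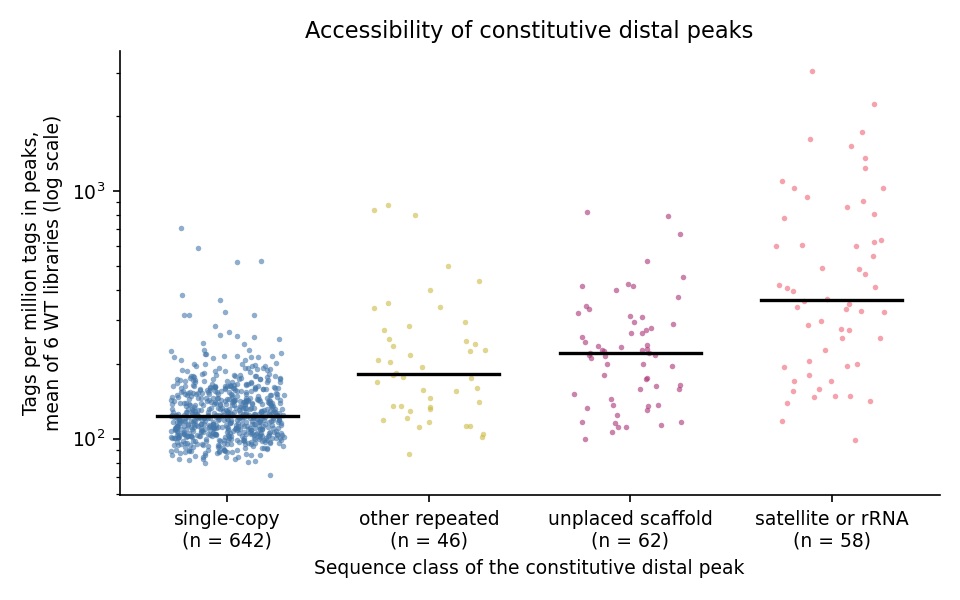
Each point is a constitutive distal peak, with its mean normalized level over the 6 WT libraries on a log axis by sequence class, and black lines are medians. The medians are 123, 182, 222 and 363 from left to right, and the 8 highest peaks are satellites or ribosomal repeats.

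The 8 highest peaks were all of the satellite and ribosomal class. The highest lay 2655 bp into Rn45s, the 45S precursor of ribosomal RNA (chr17:39845286-39846019), and had 363 and 472 tags in Veh, 554 and 376 in KLA, and 571 and 503 in RGFP966 + KLA. All of its words occurred once in the assembly. A lower Rn45s peak at chr17:39848259-39848590 had 176, 226, 235, 153, 239 and 229 tags in the same order.

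The second highest, a satellite at chr9:35305355-35305555 assigned to 4933422A05Rik, had 308, 332, 337, 345, 347 and 356 tags. The other 5 of the 8 were satellites on chromosome 2 (chr2:98662755-98667307) that the table assigned to Lrrc4c, a synaptic adhesion protein whose TSS lay 1195198 to 1199530 bp away. Among them, the peak at chr2:98667067-98667307 had 237, 265, 268, 256, 269 and 271 tags. Tags of the 4933422A05Rik satellite and of this Lrrc4c peak hardly moved between libraries whose depth differed widely. The authors counted at most 3 tags per position, and the part of this limit in the levels and shares of repeats was not tested.

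A pair of peaks assigned to Col19a1 on chromosome 1 were 82.6% and 87.5% words that also occur in the mitochondrial genome. The higher of them (chr1:24613017-24613217) had 125, 128, 140, 130, 140 and 137 tags, and the lower (chr1:24612651-24612855) had 58, 55, 65, 54, 68 and 67.

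The genes with the most members were mostly places of repeats. The pseudogene Pisd-ps3 was assigned all 62 peaks of the scaffold, whose copies were not counted, with normalized levels of up to 825. Mir101c was assigned 19 satellite peaks on chromosome 9, Sfi1 9 peaks on chromosome 11, partly single-copy, Gm5458 7 satellite peaks on chromosome 14, and Lrrc4c 6 satellite peaks. The 642 single-copy peaks were spread thinly, since 554 of the 594 genes assigned to them had 1 peak, 34 had 2 and 6 had 3 or more. Another single-copy peak lay within 10 kb for 37 of the 642.

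The highest pair of single-copy peaks sat between Sfi1, a centrosome protein, and Eif4enif1, a translation repressor. The peak at chr11:3195409-3196092 had 55 and 117 tags in Veh, 107 and 104 in KLA, and 138 and 138 in RGFP966 + KLA. The second, at chr11:3198053-3198641, had 73, 90, 109, 84, 90 and 94 tags. In the first of these the Veh libraries were apart, with normalized levels of 427 and 966.

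The repeats also took a share of the tags that varied from library to library. All members together held 14.8 and 16.6% of the tags in peaks in Veh, 14.2 and 15.9% in KLA, and 13.4 and 13.6% in RGFP966 + KLA. Satellites and ribosomal repeats held 3.3, 4.24, 2.86, 4.15, 2.77 and 2.92% in the same order, so that Veh 2 and KLA 2 were highest. These were also the libraries with the smallest share of tags in peaks, 1.4 and 1.44% of all tags, against 1.76 to 2.06% in the other 4, and with the fewest tags in peaks. The part of this in the class difference was not tested. The single-copy share was more even, at 9.13 and 9.11%, 8.8 and 8.56%, and 8.25 and 8.26%.

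**Figure D2:**
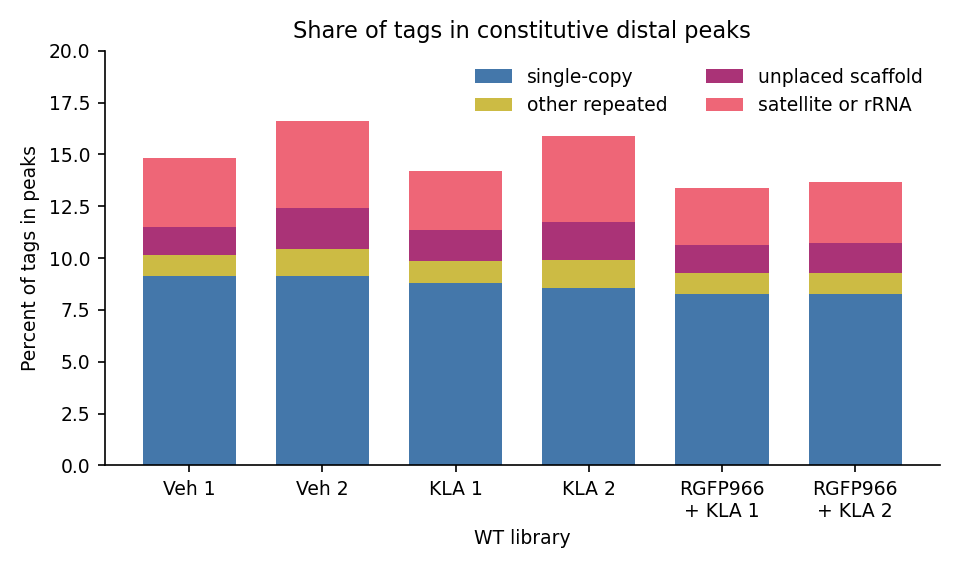
Stacked bars give the percent of each WT library's tags in peaks that fell in constitutive distal peaks, by sequence class. The satellite and ribosomal part is largest in Veh 2 and KLA 2 (4.24 and 4.15%), while the single-copy part stays between 8.25 and 9.13%.

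Of the 642 single-copy peaks, 328 were intergenic and 294 intronic. They lay mostly at intermediate distances, with 154 at 2 to 10 kb, 309 at 10 to 50 kb, 94 at 50 to 100 kb and 85 beyond. The median level was between 122 and 124 in each of these ranges. The detailed annotation placed 53 in CpG islands, where the median GC content was 68.4%, and 39 in LTR elements. The median GC content was 50.7% for single-copy peaks, near the 49% of other distal peaks and below the 65.2% of constitutive peaks within 2000 bp of a TSS.

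The word distal rests on the TSSs of the authors' annotation. Measured against GENCODE vM21, 128 of the 642 single-copy peaks (19.9%, 17 to 23.2) lay within 2000 bp of some annotated TSS, and 75 within 500 bp. The nearest start of those 75 belonged to a protein-coding gene for 43 and to a lincRNA for 15. Of the 53 peaks in CpG islands, 32 had a GENCODE TSS within 2000 bp. Examples are an Nfia peak (chr4:97772159-97772449), 430 bp from an Nfia start in GENCODE and 5322 bp from the one used by the authors, and a Chd9 peak (chr8:90876380-90876700), 41 bp from the start of Gm45640. The Sfi1 peaks whose C/EBP and AP-1 windows are shown above lay 63 and 486 bp from an Sfi1 start in GENCODE. Single-copy peaks over 2000 bp from every GENCODE TSS, 514 in all, had a median level of 123, and the 128 near one had 128.

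Single-copy members carried the motifs of macrophage enhancers more often than constitutive peaks near a TSS did. In the central 200 bp, searched on both strands, AP-1 (TGANTCA) matched in 33.2% of the 642 peaks (29.6 to 36.9), C/EBP (TTGCNNAA) in 17.3% (14.6 to 20.4) and PU.1 (GAGGAAGT) in 14.5% (12 to 17.4). The same strings matched in 2.88, 4.76 and 2.83% of the 1911 constitutive peaks within 2000 bp of a TSS whose sequence was read, and the intervals did not overlap. Over all 9527 peaks with sequence the shares were 18.2, 10.9 and 7.49%. TGANTCA reads as a match on both strands by its symmetry and was counted once per peak, as were all strings.

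RUNX (AACCACA) matched in 9.35% of single-copy members and 1.67% of the peaks near a TSS, and IRF (GAAANNGAA) in 8.57 and 2.98%. Over all peaks these were 6.36 and 5.83%. At least 1 of these 5 motifs was present in 403 of the 642 members (62.8%), and at least 2 in 116 (18.1%). This combined count was made for the single-copy members only, so it cannot be set against other peaks or read as a trait of the members. The NFkB-p65 motif matched in 4.52% of members (3.16 to 6.41), against 3.24% near a TSS and 4.89% over all peaks.

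Promoter motifs showed the opposite order. SP/KLF (CCCCGCCCC) matched in 3.58% of single-copy members (2.4 to 5.32) and 22.6% of constitutive peaks near a TSS (20.8 to 24.5), and ETS (CCGGAAGT) in 0.779 and 7.06%, with 12.1 and 3.93% over all peaks. The MiT/TFE E-box (TCACGTGA) matched in 2 members, 0.312%, against 1.26% near a TSS and 0.777% over all peaks. The CTCF motif matched in 5 members, 0.779% (0.333 to 1.81), against 2.09% near a TSS (1.54 to 2.84), 1.73% of other distal peaks (1.36 to 2.19) and 1.93% over all peaks. A match is a string in this window and not a measurement of binding. No share was set against a background of like base composition. Median GC content was 50.7% in single-copy members and 65.2% in constitutive peaks near a TSS. The part of GC content in these differences was not tested.

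**Figure D3:**
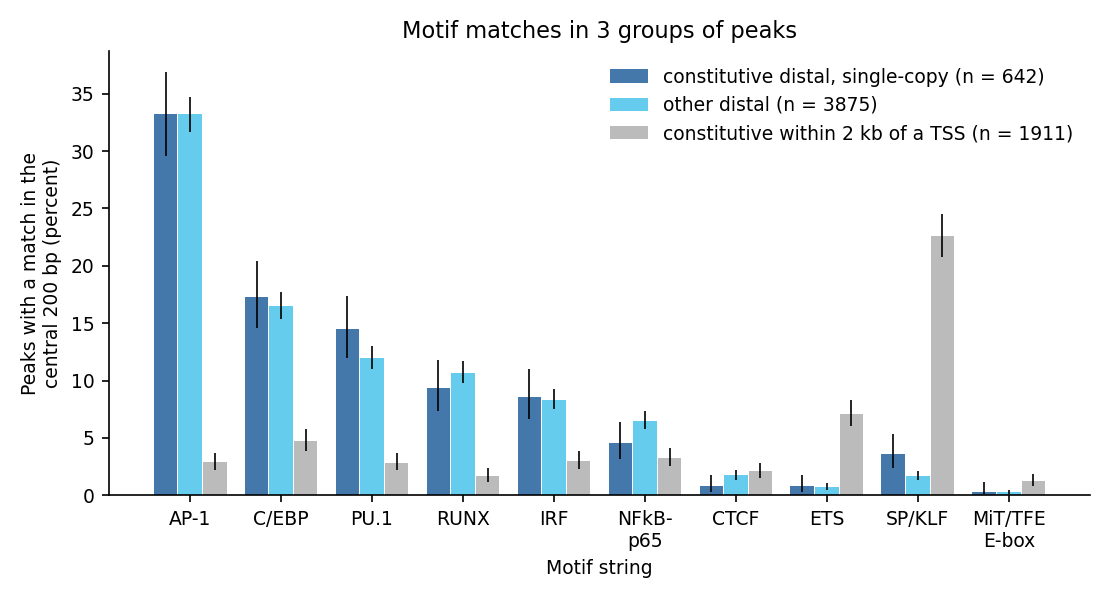
Bars give the percent of peaks with a match to each motif in the central 200 bp, and error bars are 95% Wilson intervals. Single-copy constitutive distal peaks and other distal peaks have like shares of AP-1 (33.2 and 33.2%), whereas SP/KLF (22.6%) and ETS (7.06%) are highest in constitutive peaks within 2 kb of a TSS.

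The same strings were counted in other distal peaks, those called in fewer than 3 conditions. AP-1 matched in 33.2% of the 3875 with sequence (31.7 to 34.7), C/EBP in 16.5%, RUNX in 10.7% and IRF in 8.34%, each with an interval that overlapped that of the members. PU.1 was at 12% (11 to 13) and NFkB-p65 at 6.5% (5.77 to 7.32), and these intervals overlapped too. SP/KLF matched in 1.68% of other distal peaks (1.32 to 2.13), below the 3.58% of single-copy members (2.4 to 5.32), and in 2.14% (1.2 to 3.79) of the members over 2000 bp from every GENCODE TSS. Overlapping intervals do not show that shares are equal. Within the single-copy members, those with and without an AP-1 match had median levels of 121 and 125, and those with and without a PU.1 match 121 and 124.

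Whether these regions are open in other resting macrophages was asked with the NCoR f/f Veh libraries, which the choice of members did not use. Of the 808 members, 805 overlapped a peak of that separate table (99.6%, 98.9 to 99.9), as did 9218 of all 9698 peaks. That table holds 24867 peaks merged over 4 sets. It was overlapped by 99.9% of constitutive peaks within 2000 bp of a TSS and by 89.2% of other distal peaks. Of the members, 776 overlapped a peak called in its Veh condition (96%, 94.5 to 97.2), against 7589 of all 9698 peaks. For the single-copy members this Veh share was 613 of 642 (95.5%, 93.6 to 96.8). It was 97.2% for constitutive peaks within 2000 bp of a TSS (96.3 to 97.8) and 58.8% for other distal peaks (57.3 to 60.4). Other distal peaks at or above the median level of the members, 93 in all, were at 88.2% (80.1 to 93.3), against 97.3% of the members in that range (95.2 to 98.5). Every member was by rule called in WT Veh, whereas other distal peaks need not have been. The differences between these Veh shares are thus in part a consequence of the choice and are given as a description.

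The members without a counterpart were a Tbk1 peak, with 19, 11, 19, 12, 12 and 12 tags in the WT libraries, a Trim55 peak in repeated sequence, with 22, 12, 23, 21, 26 and 22, and a Mir101c satellite, with 18, 22, 21, 19, 21 and 27. The Tbk1 peak was thus lower than most members, and it was the 1 single-copy peak of these. In the NCoR f/f libraries, counterparts of members had a median of 25 and 35 tags, against 12 and 16 over all peaks of that table. Since the tables were counted over different peaks, levels were not tested between them.

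The next question was which of these constitutive peaks nevertheless changed in height with KLA or RGFP966. Over all 9698 peaks, edgeR's quasi-likelihood test (Benjamini-Hochberg adjusted p under 0.05 and over 2-fold) called 3.30% gained and 1.73% lost for KLA against Veh. Among the 808 members, 2 were gained and 3 lost. For RGFP966 + KLA against KLA, 0.237% of all peaks were gained and 0.103% lost, and no member was called in edgeR or DESeq2. In edgeR, 56 members (6.93%) had an unadjusted p under 0.05, against 13.8% of all peaks. In DESeq2 these were 5 members, against 144 of all 9698 peaks. For RGFP966 + KLA against Veh, 6.89% of all peaks were gained and 2.99% lost, and 3 members were gained and 14 lost. The members' choice used these libraries, so nothing is read from their counts against the background.

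A lower level can mean fewer cells with an open site or less accessibility in each cell, which cannot be told apart here. DESeq2 called no member in any comparison, and none of all peaks either. At an unadjusted p under 0.05 it had 8 members in KLA and 27 in RGFP966 + KLA, each against Veh. Over all 9698 peaks these counts were 570 and 742. With libraries scaled to all of their tags, KLA had 0 gained and 1 lost members against Veh, and RGFP966 + KLA had 2 gained and 1 lost. Over all peaks that setting called 305 and 711.

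Most members moved little, which is in part a consequence of their choice. With KLA, 88% of members stayed within 1.5-fold of Veh in either direction. RGFP966 + KLA left 91% within 1.5-fold of KLA and 85.3% within 1.5-fold of Veh. Over all peaks these shares were 63.4, 73.9 and 60.5%. They were 91, 92.9 and 87.1% for constitutive peaks within 2000 bp of a TSS, so evenness was not particular to the members. The median log2 fold change of members was -0.07, -0.14 and -0.21 in these comparisons, and that of all peaks 0.02, 0.03 and 0.04. For constitutive peaks within 2000 bp of a TSS it was -0.03, -0.08 and -0.12. Scaling to all tags shifted the medians of all peaks to -0.05, 0.21 and 0.14, and those of members to -0.14, 0.04 and -0.11. This turned the direction of the members for RGFP966 + KLA against KLA, and the members stayed below all peaks in each comparison. All peaks include those called in fewer than 3 conditions, which the choice of members left out. The order of these medians is thus in part a consequence of that choice. The comparisons share libraries. Single-copy members had medians of -0.07, -0.09 and -0.18. The medians of satellites and ribosomal repeats, -0.13, -0.27 and -0.36, are not read as changes. Tags of the satellite assigned to 4933422A05Rik stayed at 308 to 356 while tags in peaks ran from 116733 to 202523. Tags of the whole class ran from 4257 in Veh 1 to 5673 in RGFP966 + KLA 2, and those of the highest Rn45s peak from 363 to 571. The part of library size in these medians was not tested.

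**Figure D4:**
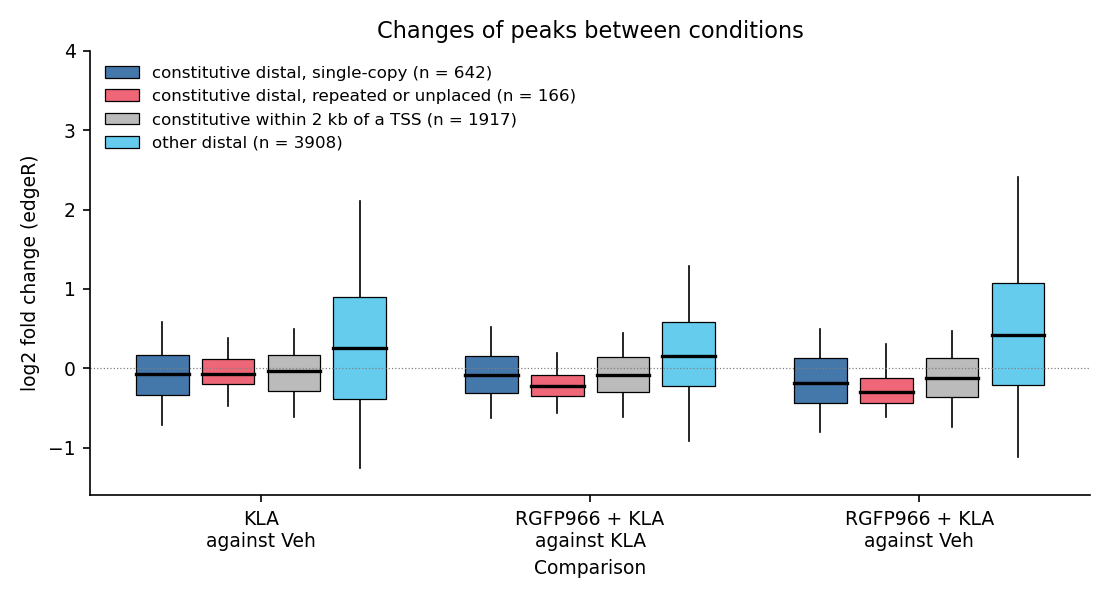
Boxes span the quartiles of the log2 fold change in edgeR for 4 groups of peaks in 3 comparisons, with the median as a line and whiskers over the central 90% of peaks. The medians of single-copy constitutive distal peaks are -0.07, -0.09 and -0.18, and other distal peaks spread further to both sides.

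Replicates set the limit on such changes. A single-copy member had a median of 17 and 16 tags in Veh, 23 and 14 in KLA, and 24 and 23 in RGFP966 + KLA. Across the 642 single-copy peaks, the log2 levels of the 2 libraries of a condition correlated at 0.552, 0.623 and 0.695 in Veh, KLA and RGFP966 + KLA, and libraries of different conditions at 0.449 to 0.636. These are correlations across peaks that share libraries and depth.

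The member with the clearest loss lay in an intron of Dapk1, a death-associated kinase of apoptosis and autophagy (chr13:60672926-60673340, 70922 bp from the TSS). It had 43 and 34 tags in Veh, 23 and 13 in KLA, and 24 and 17 in RGFP966 + KLA, or normalized levels of 333, 281, 123, 111, 119 and 87.5. The Veh libraries were above all 4 others. The log2 fold change was -1.37 ± 0.29 (SE) with KLA (edgeR adjusted p = 0.00232) and -1.57 ± 0.28 with RGFP966 + KLA (edgeR adjusted p = 0.000242), both against Veh. The call with RGFP966 + KLA held with any 1 library left out, and the call with KLA was lost without Veh 1. The NCoR f/f Veh libraries had 52 and 50 tags in its counterpart, out of 372367 and 509741 tags in peaks, a mean normalized level of 119. These libraries were deeper and counted over different peaks, so this level was not tested against those of WT. None of the PU.1, C/EBP, AP-1, RUNX, IRF, NFkB-p65 or CTCF strings occurred in its central window, which is shown because this was the largest loss.
Dapk1, chr13:60673034-60673233: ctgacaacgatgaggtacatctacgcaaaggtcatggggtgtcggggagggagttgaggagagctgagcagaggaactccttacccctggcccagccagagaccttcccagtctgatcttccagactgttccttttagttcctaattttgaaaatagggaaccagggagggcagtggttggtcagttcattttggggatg

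The other losses with KLA were a peak assigned to F5, coagulation factor V, and one assigned to Mab21l1, a developmental gene. The F5 peak (chr1:164135383-164135647) lay 16320 bp upstream of the F5 TSS, in an intron outside F5 with its nearest GENCODE start at Selp, the adhesion receptor P-selectin. It had 30, 21, 19, 10, 32 and 26 tags, and the normalized levels of 233 and 173 in Veh were above 102 and 85.7 in KLA, with 158 and 134 in RGFP966 + KLA between them. Its log2 fold change with KLA was -1.09 ± 0.33 (edgeR adjusted p = 0.039).

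The Mab21l1 peak (chr3:55652405-55652638) lay 129989 bp upstream of the Mab21l1 TSS, in an intron outside Mab21l1 with its nearest GENCODE start at Nbea, a vesicle-trafficking protein. Its tags were 29, 29, 23, 12, 21 and 32, and its log2 fold change with KLA was -1.01 ± 0.31 (edgeR adjusted p = 0.0448). Neither call held when 1 library was left out.

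The gained members with KLA were assigned to Itga5, the fibronectin receptor subunit integrin alpha 5, and to Herpud1, a protein of endoplasmic reticulum quality control. The Itga5 peak (chr15:103370458-103370833) lay 3854 bp upstream of its TSS and had 13, 13, 47, 22, 28 and 32 tags. Its normalized levels were 101 and 107 in Veh, 251 and 188 in KLA and 138 and 165 in RGFP966 + KLA, so that the conditions did not overlap. The log2 fold change with KLA was 1.12 ± 0.32 (edgeR adjusted p = 0.0287), and it stayed called only when KLA 2 was the library left out. Its central window carries the AP-1 string in 2 places and the IRF string in 1, all in capitals.
Itga5, chr15:103370546-103370745: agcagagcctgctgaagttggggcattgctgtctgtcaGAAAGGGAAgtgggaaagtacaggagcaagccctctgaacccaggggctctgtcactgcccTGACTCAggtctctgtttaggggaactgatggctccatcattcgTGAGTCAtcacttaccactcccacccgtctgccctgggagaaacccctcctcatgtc

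The Herpud1 peak (chr8:94365419-94365843) lay 20798 bp upstream of the Herpud1 TSS, in an intron outside Herpud1 with its nearest GENCODE start at Slc12a3, a sodium-chloride cotransporter. It had 17, 13, 47, 29, 49 and 52 tags, and both KLA and both RGFP966 + KLA libraries, at normalized levels of 242 to 268, were above the 132 and 107 of Veh. The log2 fold change was 1.06 ± 0.31 with KLA (edgeR adjusted p = 0.0322) and 1.08 ± 0.30 with RGFP966 + KLA (edgeR adjusted p = 0.0126). Neither call held when 1 library was left out. A C/EBP match stands in capitals in its window, shown as the second gained region.
Herpud1, chr8:94365532-94365731: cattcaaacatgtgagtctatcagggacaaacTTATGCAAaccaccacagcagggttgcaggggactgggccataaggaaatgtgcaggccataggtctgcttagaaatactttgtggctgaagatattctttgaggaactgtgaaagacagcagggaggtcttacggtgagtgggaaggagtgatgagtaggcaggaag

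In RGFP966 + KLA against Veh the largest gain was a peak assigned to Mir491 (chr4:88213927-88214270), with 11, 13, 34, 19, 47 and 48 tags. Its log2 fold change was 1.31 ± 0.31 (edgeR adjusted p = 0.00379), against 0.85 ± 0.35 with KLA (edgeR adjusted p = 0.146), and RGFP966 + KLA against KLA gave 0.46 (edgeR adjusted p = 0.417). The third gain was a peak assigned to Galr1, a galanin receptor, with 9, 7, 20, 23, 28 and 32 tags and a log2 fold change of 1.23 ± 0.38 (edgeR adjusted p = 0.0299). The Mir491 call was lost without Veh 1, and the Galr1 call without any 1 of the 4 libraries. Both peaks were lowest in Veh, and KLA lay between Veh and RGFP966 + KLA for Mir491 in every library.

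**Figure D5:**
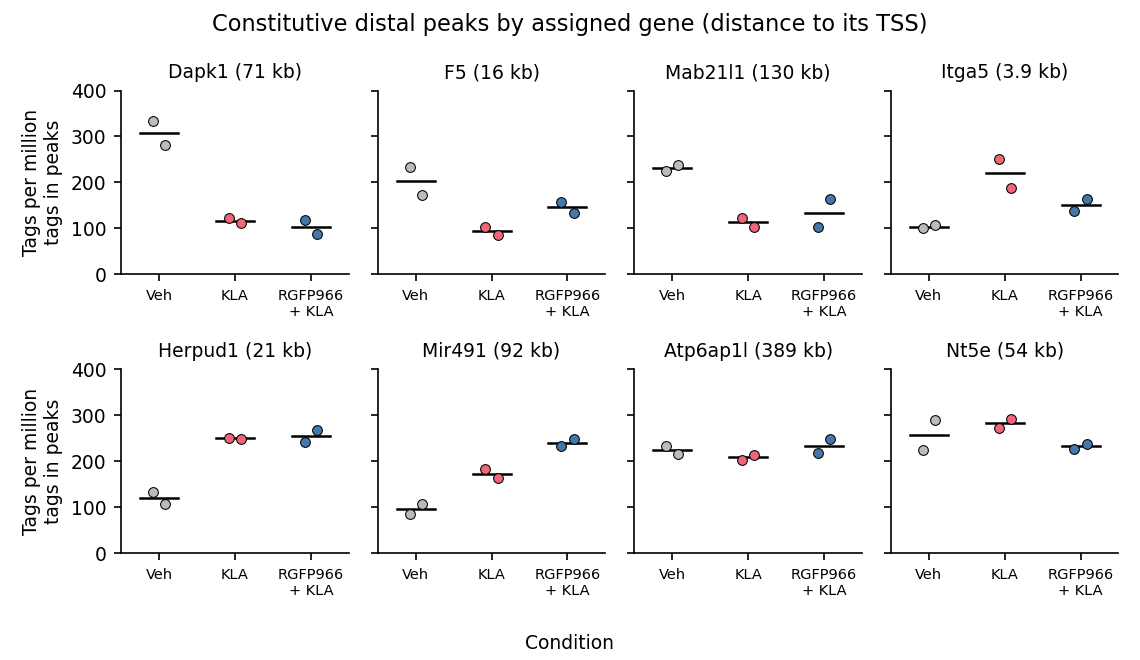
Points are the normalized levels of 2 libraries per condition, and lines their means, for 8 peaks named by assigned gene and distance to its TSS. Dapk1, F5 and Mab21l1 are higher in Veh than in KLA, Itga5, Herpud1 and Mir491 are lower in Veh, and Atp6ap1l and Nt5e are the most even single-copy peaks of at least 30 tags on average, with a highest level 1.21 and 1.29 times the lowest.

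After Dapk1, the largest losses in RGFP966 + KLA against Veh were at Chd9, a chromatin remodeler, and Ctns, the lysosomal cystine transporter. The Chd9 peak had 18, 24, 19, 17, 14 and 12 tags and a log2 fold change of -1.35 ± 0.35 (edgeR adjusted p = 0.00852). The Ctns peak (chr11:73193090-73193428) had 26, 24, 19, 11, 18 and 14 tags and a log2 fold change of -1.30 ± 0.32 (edgeR adjusted p = 0.00474). With 1 library left out, the Chd9 call held only without Veh 1, and the Ctns call only without Veh 2 or RGFP966 + KLA 1. Both had normalized levels in RGFP966 + KLA below those of the Veh libraries, and for Ctns the KLA libraries, at 102 and 94.2, were also below the 202 and 198 of Veh.

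The other 11 lost members were assigned to Akr1e1, Chd7, Ankrd33b, Mdm1, Jun, Tmem230, Prr5l, Mtdh, Zfp397, 1110002J07Rik and Tm6sf1. Their log2 fold changes lay between -1.24 and -1.02, and each lost its call when at least 1 of the libraries was left out. Akr1e1, at the far end, had normalized levels of 240.4 and 90.8 in Veh, and its log2 fold change was -0.36 without Veh 1 (edgeR adjusted p = 0.756). Tmem230 was at -0.65 without Veh 1 (edgeR adjusted p = 0.523), and Tm6sf1 at -0.65 without Veh 2 (edgeR adjusted p = 0.366). Chd7 is another chromatin remodeler of the Chd family, and its lost peak lay 1089 bp from a Chd7 start in GENCODE. Jun, an AP-1 subunit, was assigned a peak 53918 bp upstream (chr4:95105975-95106306) with 13, 25, 19, 12, 13 and 15 tags, and its log2 fold change was -1.10 ± 0.36 (edgeR adjusted p = 0.0402). Its Veh libraries were far apart, at normalized levels of 101 and 206, and without Veh 2 the log2 fold change was -0.51 and not called.

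Between RGFP966 + KLA and KLA no member was called, and the lowest log2 fold change was that of a peak in an intron of Abca1, the cholesterol efflux transporter (chr4:53121864-53122207). It had 11, 14, 39, 13, 13 and 14 tags, or normalized levels of 85.3 and 116 in Veh, 209 and 111 in KLA and 64.2 and 72.1 in RGFP966 + KLA. The log2 fold change was -1.32 (edgeR adjusted p = 0.059). KLA 1 was the highest library, and the peak passed the threshold in 5 alternatives with all libraries of the comparison, with edgeR adjusted p = 0.0283 to 0.0464. It did not pass with libraries scaled to all of their tags, in DESeq2, or with KLA 1 left out. The second Abca1 member, at chr4:53120377-53120690, had 16, 13, 18, 9, 13 and 13 tags.

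The most even members with at least 30 tags on average were assigned to Atp6ap1l, Tcp10c, Nt5e, Nfia and Pisd-ps3. The Atp6ap1l peak (chr13:90515887-90516253), 389285 bp from its TSS and with a PU.1 match shown above, had 30, 26, 38, 25, 44 and 48 tags. Its normalized levels, 233, 215, 203, 214, 217 and 247, spanned 1.21-fold. The peak of Nt5e, the ectonucleotidase CD73 (chr9:88273355-88273691), had 29, 35, 51, 34, 46 and 46 tags and spanned 1.29-fold. The Nfia peak had 25, 28, 35, 28, 50 and 37 tags. Evenness was a criterion for naming these and is not a result.

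Genes of 8 lists chosen for macrophage biology and its regulators were looked up next. Of 186 genes, 110 had any peak and 17 had a member. The 20 members were among 232 peaks of these genes, beside 808 among 9698 over all peaks, and had normalized levels from 89.3 to 158. The Jun peak was lost in RGFP966 + KLA against Veh, and no other of the 20 was called in any comparison with edgeR, where 0 passed in the other comparisons. The medians of the 20 log2 fold changes were -0.17, -0.30 and -0.28 in the 3 comparisons. Of the 24 macrophage lineage transcription factors 4 had a member, as did 1 of 23 genes of NF-kB and AP-1, 1 of 24 cytokines and chemokines, 6 of 29 receptors and adhesion proteins, 0 of 13 of the NCoR and HDAC3 complex, 1 of 25 lipid and lysosome genes, 2 of 23 feedback regulators and 2 of 25 signaling and metabolism genes.

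Among transcription factors, the peak 4103 bp upstream of Nr4a1, an orphan nuclear receptor, was highest, with 21, 11, 23, 19, 22 and 21 tags. Maf, which drives resident macrophage identity, had a peak 212321 bp from its TSS (chr8:115494360-115494786), with 13, 13, 23, 15, 29 and 26 tags. Its normalized levels were 101 and 107 in Veh and 143 and 134 in RGFP966 + KLA, a log2 fold change of 0.41 that was not called (edgeR adjusted p = 0.461). The Maf window, shown for its AP-1 match near the start and C/EBP match near the middle, is a distal element with both. Ets2 and Mitf had 1 member each.
Maf, chr8:115494474-115494673: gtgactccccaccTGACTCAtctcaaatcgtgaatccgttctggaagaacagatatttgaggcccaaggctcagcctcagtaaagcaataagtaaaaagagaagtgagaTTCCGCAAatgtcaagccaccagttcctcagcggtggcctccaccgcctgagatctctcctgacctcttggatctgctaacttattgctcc

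Among receptors, Tlr2, which recognizes bacterial lipopeptides, had 3 members upstream of its TSS. The one at 43695 bp (chr3:83885177-83885430) had 17, 12, 43, 20, 26 and 36 tags, that at 21519 bp (chr3:83862973-83863281) 13, 13, 18, 13, 24 and 23, and that at 3780 bp (chr3:83845202-83845575) 16, 19, 23, 15, 25 and 15. The farthest had the largest difference, with normalized levels of 132 and 99.1 in Veh and 230.0 and 171 in KLA, a log2 fold change of 0.83 ± 0.33 (edgeR adjusted p = 0.128). The middle one was even, at 96.2 to 119 in all libraries. The windows are, in order, those of the nearest, with AP-1 and NFkB-p65 matches in that order in capitals, the middle, with a C/EBP match, and the farthest, with no match.
Tlr2, chr3:83845289-83845488: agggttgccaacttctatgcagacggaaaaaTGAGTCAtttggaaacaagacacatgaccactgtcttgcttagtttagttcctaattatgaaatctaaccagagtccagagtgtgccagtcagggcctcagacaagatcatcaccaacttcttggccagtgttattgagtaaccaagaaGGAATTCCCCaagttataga
Tlr2, chr3:83863028-83863227: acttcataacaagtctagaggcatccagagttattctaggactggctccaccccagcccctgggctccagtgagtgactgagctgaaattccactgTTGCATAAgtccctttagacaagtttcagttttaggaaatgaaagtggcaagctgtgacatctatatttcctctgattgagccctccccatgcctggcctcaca
Tlr2, chr3:83885204-83885403: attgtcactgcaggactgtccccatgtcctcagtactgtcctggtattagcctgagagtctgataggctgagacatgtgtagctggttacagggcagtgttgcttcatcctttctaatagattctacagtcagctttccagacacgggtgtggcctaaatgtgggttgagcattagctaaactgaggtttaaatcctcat

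Csf1r, the M-CSF receptor that BMDMs need to survive, had a member 3108 bp from its TSS, with 15, 14, 19, 12, 20 and 13 tags. Cx3cr1, the fractalkine receptor, had an intronic member (chr9:120058715-120059062) with 19, 15, 34, 21, 22 and 22 tags, whose PU.1 match is in capitals in the window shown. Itgb2, the beta 2 integrin of leukocytes, had 18, 24, 21, 13, 31 and 30 tags. Cd36, a scavenger receptor, had 22, 12, 20, 12, 19 and 18, and Ccr1, a chemokine receptor, 21, 11, 27, 11, 21 and 12. None of them was called, and in Ccr1 the libraries of each condition were far apart.
Cx3cr1, chr9:120058789-120058988: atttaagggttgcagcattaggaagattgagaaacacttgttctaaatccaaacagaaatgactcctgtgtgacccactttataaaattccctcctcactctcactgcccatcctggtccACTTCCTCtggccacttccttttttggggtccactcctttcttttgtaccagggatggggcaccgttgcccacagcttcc

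Of the remaining lists, Ccl2, the monocyte chemokine, had a member 30620 bp upstream with 18, 13, 15, 10, 25 and 22 tags. Zc3h12a, which encodes the mRNA-degrading Regnase-1, had one with 16, 11, 28, 15, 24 and 19, and Pde4b, a cyclic AMP phosphodiesterase, one with 15, 9, 26, 9, 25 and 17. Hif1a, the hypoxia factor, and Pfkfb3, a regulator of glycolysis, had members with 20, 19, 24, 14, 22 and 22 tags and 20, 11, 19, 14, 17 and 24 tags. In Ccl2 both KLA libraries, at 80.2 and 85.7, were below the other 4 in normalized level, and in Hif1a Veh was highest at 155 and 157. The adjusted p-values in edgeR for KLA against Veh were 0.416 and 0.663.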

How the data were processed

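The deposited values are raw tag counts per merged peak and library, which the authors made, by the study's methods and the file headers, by mapping to mm10 with Bowtie2, calling peaks with HOMER, keeping IDR peaks of 2 libraries per condition and counting at most 3 tags per position without depth adjustment. Every per-sample column was used. Members and gene lists were chosen with earlier results of these data known. Groups followed the sample labels. A minimum of 4 tags in any 1 library removed no peak, and peaks were fitted with edgeR 4.0.16 in R 4.3.3 (glmQLFit, glmQLFTest), with total tags in peaks as library size and all 6 WT libraries in 1 model. Calls needed a Benjamini-Hochberg adjusted p under 0.05 and a fold change over 2. DESeq2 1.42.0 was an alternative. Both were run on simulated tags with a fixed spread, where only edgeR had to meet a set recovery. An exact permutation test of 2 libraries against 2 cannot go below 0.333, so none is given.

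Peaks named are the 8 highest members, the 5 genes with most members, up to 3 gained and 3 lost called members per comparison with the largest fold change (libraries not overlapping, at least 20 tags on average in the higher condition), the 5 most even with at least 30 tags, the highest member of each gene list and those next to the 2000 bp limit. The single-copy peaks of chromosome 11, the Col19a1 pair, the Nfia and Chd9 examples, the other called and list members, the Abca1 difference and the sequences beyond the highest motif matches were named after their values were seen. Genome sequence came from the mm10 assembly for chromosomes 1 to 19, X and Y, and TSSs from GENCODE vM21. Motifs were searched as strings on both strands in the central 200 bp, and CTCF and NFkB-p65 as consensus forms. Coordinates are those of the authors' table. Part of the marker check is not reported here.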

Additional observations from a re-analysis of the deposited data

How the results depend on the processing

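No member was called by DESeq2 in any comparison (0, 0 and 0). With all tags of each library as library size, 1 member was called in KLA and 3 in RGFP966 + KLA, each against Veh, and with only the 4 libraries of the comparison KLA against Veh had 3. For RGFP966 + KLA against KLA, TMM factors, a filter of 16 tags and the 4 libraries gave 2 each and loess offsets 1, all lost and assigned to Abca1 or Pisd-ps3, and loess offsets gave 9 for RGFP966 + KLA against Veh. Leaving out 1 library gave 0 to 4, 0 to 1 and 3 to 7 members called, with 0 for KLA against Veh without Veh 1, 3 without KLA 1 and 3 without KLA 2, and 3 for RGFP966 + KLA against Veh without RGFP966 + KLA 2 and 7 without each other library. Deviations of same-numbered libraries correlated at 0.0219, 0.0182 and 0.0228 over all peaks and at 0.11, 0.101 and 0.0421 over members, so that not every pair was above 0.1 and the numbers were not taken to pair the libraries. The replicate block called 7, 2 and 18 members, with medians of -0.06, -0.14 and -0.21.

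The median log2 fold change of members was -0.14, 0.04 and -0.11 with all tags, -0.03, -0.07 and -0.11 with loess offsets, and -0.18 and -0.27 with TMM factors in the comparisons with RGFP966 + KLA. Leaving out 1 library gave -0.14 to 0, -0.15 to -0.08 and -0.23 to -0.12. Chosen after the data were seen, single-copy members gave medians of -0.09 and -0.18 in the comparisons with RGFP966 + KLA, and those over 2000 bp from a GENCODE TSS -0.09 and -0.19, with 11 called for RGFP966 + KLA against Veh. The share of tags in members, 14.8% on average, was 13% with a limit of 5 kb, 13.7% on chromosomes 1 to 19, X and Y, and 8.68% in single-copy members. Counterparts in the NCoR f/f table fell from 99.6% to 96.7% with an overlap of at least 50% and 96% in its Veh set. Where the alternative itself does not show it, the cause was not tested. No called member changed direction. The median single-copy member had 14 to 24 tags per library, which limits the precision of every fold change.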
